A study of Mus musculus with 4 samples.

Results

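Capillary endothelial nuclei of the mouse heart were selected from single-nucleus RNA sequencing by their transcripts, and 5841 of 45992 deposited barcodes met the selection. A nucleus was taken when it had at least 300 genes, at most 5% mitochondrial UMIs (unique molecular identifiers, each counting 1 captured RNA molecule), under 2.5% of its UMIs from the cardiomyocyte genes Ttn, Ryr2, Myh6 and Rbm20, and at least 5 UMIs from the endothelial genes Flt1, Ptprb, Cyyr1, Pecam1, Adgrl4 and Ccdc85a. It was also limited to 1 UMI each from an arterial trio (Sema3g, Gja5, Lama3), an endocardial trio (Npr3, Tmem108, Smoc1) and a lymphatic trio (Reln, Mmrn1, Flt4), and to 2 UMIs each from fibroblast genes (Pdgfra, Dcn, Col1a2, Abca8a) and immune genes (Ptprc, Mrc1, F13a1). These 26 genes chose the nuclei, so their levels are not findings here.

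The study profiled hearts of C57BL/6 mice aged 6 months in 4 genotypes: homozygous for an Rbm20 mutation with gene editing correction (called the corrected library, or Rbm20_homo_corrected), homozygous for the mutation (Rbm20_homo), heterozygous (Rbm20_het) and wild type (WT). Rbm20 encodes a splicing regulator of heart muscle whose mutations cause dilated cardiomyopathy. For each genotype 3 hearts were pooled into 1 library made with the 10x Genomics 3′ v3 chemistry, so animals cannot be told apart, no library has a replicate, and no difference between genotypes can be tested. Every 95% interval given here covers counting error only, and a difference between genotypes cannot be told apart from a difference between libraries. The labels name total cardiac nuclei as the material, while their library protocol speaks of CD45+ immune cells. Gene counts do not show whether a library carries the Rbm20 mutation. Transcripts of the features ABE_N and ABE_C, named for an adenine base editor, were present in the corrected library and at 0 in the other 3.

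Capillary endothelial cells line the smallest vessels of the heart, where oxygen, fatty acids and glucose pass from blood to cardiomyocytes. They take fatty acids up through proteins such as Cd36 and Fabp4, hold lipoprotein lipase at their surface through Gpihbp1, and depend on vascular endothelial growth factor (VEGF) signals received by Kdr with the co-receptors Nrp1 and Nrp2. Along a vessel bed they grade into arterial and venous endothelium, which carry other genes.

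The selection gave 2223 nuclei in the corrected library, 1135 in Rbm20_homo, 1268 in Rbm20_het and 1215 in WT. Nuclei that passed the gene and mitochondrial limits numbered 14957 in the corrected library, 11512 in Rbm20_homo, 9620 in Rbm20_het and 9394 in WT, from libraries of 37180791 to 52370368 UMIs. The capillary share of them was 14.9% in the corrected library (95% Clopper-Pearson interval 14.3 to 15.4), 9.86% in Rbm20_homo (9.32 to 10.4), 13.2% in Rbm20_het (12.5 to 13.9) and 12.9% in WT (12.3 to 13.6). Rbm20_homo had the lowest share, and its interval did not overlap the other 3. Among nuclei under the cardiomyocyte limit alone the shares were 20.2% in the corrected library, 14.1% in Rbm20_homo, 19.0% in Rbm20_het and 20.9% in WT, so Rbm20_homo was again lowest while the corrected library no longer stood above WT. Nuclei of other classes enter the denominators, so a share can differ through them as well.

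**Figure D1:**
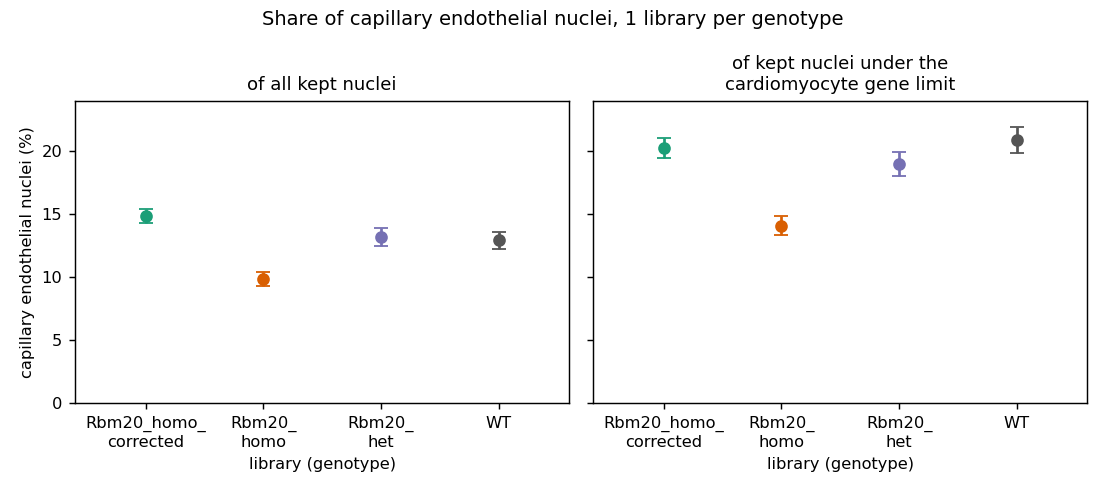
Capillary endothelial nuclei (percent, y axis) of all kept nuclei (left) and of kept nuclei under the cardiomyocyte gene limit (right) in each library (x axis), as points with 95% Clopper-Pearson intervals for counting error only. Rbm20_homo, at 9.86% and 14.1%, lies under the other 3 libraries in both panels.

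The median capillary nucleus held 1557 UMIs in the corrected library, 1652 in Rbm20_homo, 1678 in Rbm20_het and 1616 in WT, and the summed UMIs outside mitochondrial genes were 3912722 in the corrected library, 2068081 in Rbm20_homo, 2381247 in Rbm20_het and 2230545 in WT. Levels below are counts per 1000000 of these summed UMIs (CPM), and all gene comparisons are of such sums. A gene is called higher or lower when it differed by at least 1.5-fold and had at least 50 UMIs in the 2 libraries together. Barcodes were almost never shared: 1 member barcode was common to the corrected library and WT, 1 to Rbm20_homo and Rbm20_het, and 0 to every other pair.

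The label was checked with 18 further capillary endothelial markers that the selection did not use, among them Kdr, Car4, Gpihbp1, Cd36, Fabp4, Aqp1, Tcf15 and Meox2. At least 3 of their UMIs were found in 99.1% of members in the corrected library, 99.4% in Rbm20_homo, 99.4% in Rbm20_het and 99.2% in WT. Their summed level was 9129 CPM in capillary nuclei of the corrected library, 10004 in Rbm20_homo, 11019 in Rbm20_het and 11336 in WT, against 648 to 749.6 CPM in mural nuclei and 942 to 1223 CPM in cardiomyocytes. Endocardial nuclei, which are also endothelial, reached 6233 to 7235 CPM. Arterial nuclei held 10721 CPM in the corrected library, 9797 in Rbm20_homo, 7800.2 in Rbm20_het and 9934 in WT, from 44, 49, 30 and 18 nuclei in these libraries. Mural nuclei and cardiomyocytes were themselves chosen with at most 1 UMI of the 6 endothelial genes of the selection. Low levels of endothelial markers there were therefore partly set in advance and are no independent check of the label. The markers did not set the members apart from arterial endothelium, which the selection limits by its own 3 genes. Members with exactly 5 endothelial UMIs, the lowest allowed, numbered 89 in the corrected library, 36 in Rbm20_homo, 31 in Rbm20_het and 49 in WT, and their summed further markers ran from 6843 to 9281 CPM. Nuclei just outside, with 4 such UMIs, numbered 68 in the corrected library, 20 in Rbm20_homo, 23 in Rbm20_het and 37 in WT and had 5314 to 8245 CPM. Across libraries the ranges on the 2 sides of the threshold overlap, but within each library the members were above the nuclei just outside. The values were 7547 against 6921 CPM in the corrected library and 6843 against 6186 in Rbm20_homo. They were 9281 against 5314 CPM in Rbm20_het and 8571 against 8245 in WT.

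Outside the selection genes, the 15 genes whose capillary level stood furthest above 6 other classes (endocardial, lymphatic, mural, fibroblast, immune and cardiomyocyte nuclei) had a level at least 3.95 times that of the next of these in each library. Arterial nuclei, under 50 in every library, were not among the classes compared. This describes the selected nuclei and is no test. The mural, fibroblast, immune and cardiomyocyte nuclei were chosen with at most 1 UMI of the endothelial selection genes. Ssu2 led at 7.36 times or more, with 25.6 CPM in the corrected library, 23.7 in Rbm20_homo, 23.52 in Rbm20_het and 24.7 in WT. Car4, a carbonic anhydrase of capillary surfaces, had 63.1 CPM in the corrected library, 74.47 in Rbm20_homo, 68.9 in Rbm20_het and 67.7 in WT. Tspan7, a tetraspanin, had 753 CPM in the corrected library, 729 in Rbm20_homo, 807 in Rbm20_het and 733 in WT. None of these 3 genes was past 1.5-fold in any comparison. Others of the 15 did differ: the metalloproteinase inhibitor Timp4 had 132 CPM in the corrected library, 202 in Rbm20_homo, 219 in Rbm20_het and 113 in WT, and Rgcc, a cell cycle regulator of endothelium, had 204 CPM in the corrected library, 356 in Rbm20_homo, 340.2 in Rbm20_het and 205 in WT. Both were higher in Rbm20_homo and Rbm20_het than in the corrected library and WT. Slc28a2, a nucleoside transporter, had 492 CPM in the corrected library, 242 in Rbm20_homo, 429.6 in Rbm20_het and 557 in WT, with Rbm20_homo lowest. The apelin receptor gene Aplnr had 51.1 CPM in the corrected library, 22.7 in Rbm20_homo, 42.4 in Rbm20_het and 65.45 in WT and was 2.88-fold lower (95% interval 2.06 to 4.09) in Rbm20_homo than in WT.

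UMIs of marker genes of other cells were present in these nuclei, and their levels differed between libraries. The 14 mural markers such as Pdgfrb and Rgs5 summed to 1284 CPM in the corrected library, 662 in Rbm20_homo, 879 in Rbm20_het and 1016 in WT, with all 14 detected in each. At least 2 UMIs of 6 of them (Pdgfrb, Rgs5, Abcc9, Kcnj8, Vtn and Notch3) were held by 11.7% of members in the corrected library, 6.43% in Rbm20_homo, 7.57% in Rbm20_het and 9.14% in WT. The 15 cardiomyocyte markers outside the rule summed to 3908 CPM in the corrected library, 3069 in Rbm20_homo, 2668 in Rbm20_het and 3870 in WT. Neither list was highest in Rbm20_homo. The 10 fibroblast markers outside the rule summed to 1487 CPM in the corrected library, 1823 in Rbm20_homo, 1281 in Rbm20_het and 1088 in WT, highest in Rbm20_homo. By gene, 8 of these 10 were at least 1.5-fold higher in Rbm20_homo than in WT and 1 lower, with a median log2 ratio of 1.62. Of all measured genes 9.14% were higher and 9.82% lower. Macrophage markers summed to 363 CPM in the corrected library, 327 in Rbm20_homo, 322 in Rbm20_het and 293 in WT. Malat1, a nuclear long noncoding RNA, had 80328 CPM in the corrected library, 95084 in Rbm20_homo, 67395 in Rbm20_het and 76874 in WT. The part of RNA from other cells in the gene results was not tested, and values without nuclei carrying mural UMIs are given where they matter.

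In Rbm20_homo against WT, 9217 genes were measured, of which 842 (9.14%) were higher and 905 (9.82%) lower, with a median log2 ratio of -0.04. With TMM factors, a scaling of libraries by trimmed means, the counts were 935 higher and 802 lower. Of the lists described below, 12 of 21 glucocorticoid genes were higher, and the VEGF receptor gene Kdr with the co-receptor genes Nrp1 and Nrp2 was lower. For the VEGF list, 4 of 6 measured members were lower and 0 higher, with a median log2 ratio of -0.76. The 4 were Kdr, Nrp1, Nrp2 and Vegfa. Kdr, the main signalling receptor for VEGF-A (chr5:75932827-75978458, minus strand, GRCm38), had 367 CPM in the corrected library, 218 in Rbm20_homo, 271 in Rbm20_het and 368 in WT. It was 1.69-fold lower (95% interval 1.501 to 1.90) in Rbm20_homo than in WT, and Rbm20_het lay between them. The co-receptor Nrp1 had 1512 CPM in the corrected library, 936 in Rbm20_homo, 1231 in Rbm20_het and 1604 in WT, which is 1.71-fold lower (95% interval 1.62 to 1.81) in Rbm20_homo than in WT. Its relative Nrp2 had 758 CPM in the corrected library, 484 in Rbm20_homo, 581 in Rbm20_het and 823 in WT, and was 1.70-fold lower (95% interval 1.57 to 1.84). In all 3 genes Rbm20_homo was lowest and the corrected library was closer to WT than to Rbm20_homo. Vegfc, a ligand made by endothelium, had 460.04 CPM in the corrected library, 441 in Rbm20_homo, 571 in Rbm20_het and 596 in WT and was not past 1.5-fold. Vegfa had 68.8 CPM in the corrected library, 49.3 in Rbm20_homo, 63.4 in Rbm20_het and 129.6 in WT, but cardiomyocytes of WT held 761 CPM, and how much of the capillary value is cardiomyocyte RNA was not tested. Without nuclei carrying 2 mural UMIs the list's median was -0.78.

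The share of nuclei with a Kdr UMI was lowest in Rbm20_homo, as the sum was. With every member thinned to 1000 UMIs, 28.0% of nuclei of the corrected library, 18.1% of Rbm20_homo, 22.2% of Rbm20_het and 27.3% of WT held a Kdr UMI. Unthinned, these shares were 40.8% in the corrected library, 28.1% in Rbm20_homo, 34.4% in Rbm20_het and 39.9% in WT. Cardiomyocytes, which should lack Kdr, held it in 0.247% to 0.693% of nuclei at the same depth. That class was limited to 1 UMI of the endothelial selection genes, so its share may understate the background. Thinning left out 195 members of the corrected library, 86 of Rbm20_homo, 87 of Rbm20_het and 107 of WT that had fewer UMIs. Flt1, a decoy VEGF receptor that the selection used, had 2163 CPM in the corrected library, 3268 in Rbm20_homo, 2956 in Rbm20_het and 1825 in WT, and nothing is read from it.

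Of 5 measured angiopoietin and Tie genes 1 was lower in Rbm20_homo than in WT and 0 higher. Tek, the angiopoietin receptor, had 576 CPM in the corrected library, 545 in Rbm20_homo, 616 in Rbm20_het and 628 in WT. Its partner Tie1 had 340.2 CPM in the corrected library, 316 in Rbm20_homo, 406 in Rbm20_het and 364 in WT; neither was past 1.5-fold. Of 24 measured guidance genes, 6 were lower in Rbm20_homo than in WT and 1 was higher, against 9.82% and 9.14% of all genes. The 6 include Nrp1 and Nrp2, already counted in the VEGF list, so the 2 lists overlap. Plxnd1, a semaphorin receptor of vessels, had 216 CPM in the corrected library, 124 in Rbm20_homo, 198 in Rbm20_het and 261 in WT, and was 2.10-fold lower (95% interval 1.81 to 2.44) in Rbm20_homo than in WT. Robo2, a Slit receptor, had 147 CPM in the corrected library, 30.9 in Rbm20_homo, 102 in Rbm20_het and 109 in WT, and was 3.52-fold lower (95% interval 2.66 to 4.71). Both were lowest in Rbm20_homo. Ephb1, an ephrin receptor, had 144 CPM in the corrected library, 54.2 in Rbm20_homo, 118 in Rbm20_het and 150.2 in WT, while the ephrin Efna5 had 130.1 CPM in the corrected library, 221 in Rbm20_homo, 172 in Rbm20_het and 98.6 in WT and was the member that was higher. Sema6a had 1274 CPM in the corrected library, 877 in Rbm20_homo, 1471 in Rbm20_het and 1451 in WT, and was 1.65-fold lower (95% interval 1.56 to 1.75) in Rbm20_homo than in WT.

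Among 34 endothelial transcription factors, 7 were lower and 4 higher in Rbm20_homo than in WT, with a median log2 ratio of -0.12. Of all genes 9.82% were lower and 9.14% higher, so the higher count is near that of all genes. Of the ETS factors that set endothelial identity, Fli1, Ets1 and Erg were divided. Ets2, another ETS factor with a ratio further from 1 than that of Fli1, is not described here. Fli1 had 1691 CPM in the corrected library, 1175 in Rbm20_homo, 1647 in Rbm20_het and 1953 in WT, and was 1.66-fold lower (95% interval 1.58 to 1.75) in Rbm20_homo than in WT. Ets1 had 616 CPM in the corrected library, 375 in Rbm20_homo, 449 in Rbm20_het and 636 in WT, and was 1.70-fold lower (95% interval 1.55 to 1.85). Erg had 312 CPM in the corrected library, 333 in Rbm20_homo, 404 in Rbm20_het and 427 in WT and was not past 1.5-fold. Bcl6b, an endothelial repressor, had 108 CPM in the corrected library, 61.9 in Rbm20_homo, 86.9 in Rbm20_het and 138 in WT. Klf2, the factor induced by laminar flow, went the other way with 106 CPM in the corrected library, 263 in Rbm20_homo, 153 in Rbm20_het and 112 in WT, which is 2.35-fold higher (95% interval 2.02 to 2.74) in Rbm20_homo. Sox17, an arterial factor also found in capillaries, had 47.54 CPM in the corrected library, 71.6 in Rbm20_homo, 70.97 in Rbm20_het and 41.2 in WT and was 1.74-fold higher (95% interval 1.33 to 2.28). Sox17 was higher in both mutant libraries than in the corrected library and WT.

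**Figure D2:**
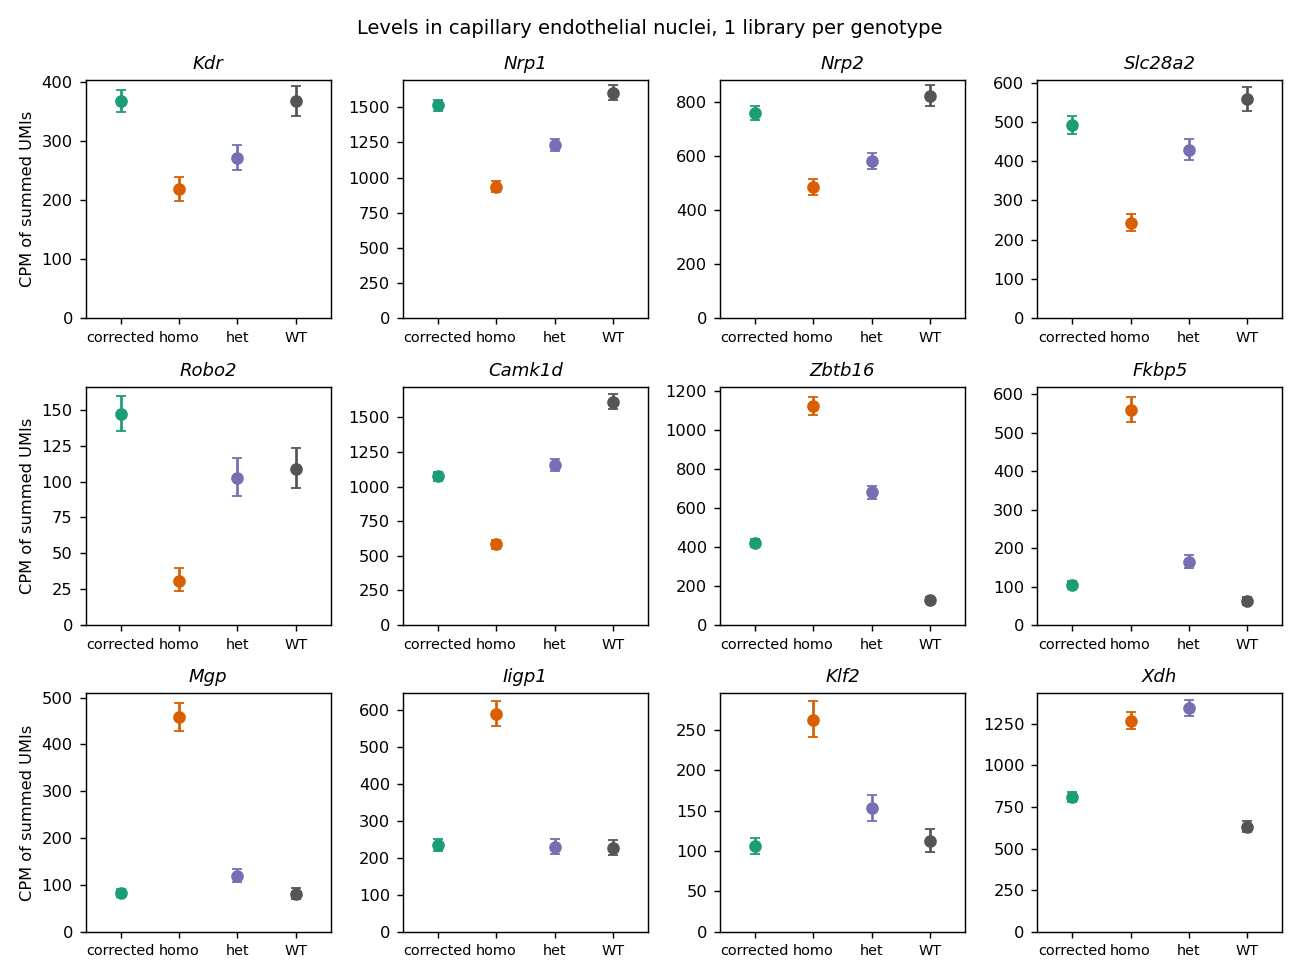
Levels of 12 named genes in capillary nuclei (CPM of summed UMIs, y axes starting at 0) in the corrected library, Rbm20_homo, Rbm20_het and WT, as points with 95% Poisson intervals for counting error only. Kdr, Nrp1 and Robo2 have their lowest points in Rbm20_homo, and Zbtb16 and Fkbp5 their highest.

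The glucocorticoid list had the highest median of the 22 functional lists in Rbm20_homo against WT. Without genes under 0.2 of their level in another class this order turned, with 0.84 for the glucocorticoid list and 1.33 for mesenchymal genes. Of 21 measured members, 12 were higher in Rbm20_homo than in WT and 0 lower, with a median log2 ratio of 1.01, beside 9.14% of all genes higher and 9.82% lower. Zbtb16, a zinc finger repressor induced by glucocorticoids (chr9:48654297-48836222, minus strand), had 421 CPM in the corrected library, 1124 in Rbm20_homo, 681 in Rbm20_het and 127 in WT, and was 8.86-fold higher (95% interval 7.83 to 10.1) in Rbm20_homo than in WT. Fkbp5, a co-chaperone of the glucocorticoid receptor (chr17:28399094-28517527, minus strand), had 104 CPM in the corrected library, 560.4 in Rbm20_homo, 164 in Rbm20_het and 62.8 in WT, and was 8.93-fold higher (95% interval 7.49 to 10.7). Both were highest in Rbm20_homo and next highest in Rbm20_het, with the corrected library above WT. The kinase gene Map3k6 had 17.6 CPM in the corrected library, 63.3 in Rbm20_homo, 43.7 in Rbm20_het and 15.7 in WT. The growth inhibitor Ddit4 had 22.7 CPM in the corrected library, 111 in Rbm20_homo, 61.7 in Rbm20_het and 33.2 in WT. Hif3a had 4.09 CPM in the corrected library, 24.7 in Rbm20_homo, 14.3 in Rbm20_het and 1.79 in WT, from few UMIs in WT. The receptor gene Nr3c1 itself had 322 CPM in the corrected library, 266 in Rbm20_homo, 321 in Rbm20_het and 282 in WT and was not past 1.5-fold. Without nuclei carrying mural UMIs the list's median was 0.85. Thinned to 1000 UMIs, 29.6% of nuclei of the corrected library, 62.6% of Rbm20_homo, 46.2% of Rbm20_het and 11.3% of WT held a Zbtb16 UMI. No class lacked the gene, so no background share can be set beside these.

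Map3k6 is shown with its promoter because it is one list member that was higher in both mutant libraries and its promoter holds the letters of a glucocorticoid receptor motif. The window runs from 250 bases before to 50 after the start in RefSeq's GRCm38.p6 annotation (chr4:133240568-133240867, plus strand), and the capitals mark the match to the motif, which was searched as GNACA, NNN and TGTNC in a row and reads the same on both strands.
Map3k6: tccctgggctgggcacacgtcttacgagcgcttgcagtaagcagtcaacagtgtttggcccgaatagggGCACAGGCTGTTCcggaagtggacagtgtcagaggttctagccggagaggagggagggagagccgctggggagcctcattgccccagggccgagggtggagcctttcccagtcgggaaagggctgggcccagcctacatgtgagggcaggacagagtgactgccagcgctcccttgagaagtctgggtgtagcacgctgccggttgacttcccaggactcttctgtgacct
Of 32851 promoters of that length, 156 (0.475%) held the motif. Among the glucocorticoid list 20 of 23 genes were matched and 2 of them held it, Map3k6 and Mt1. A match describes letters only. No window shown here held both this motif and the E-box described below.

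Interferon and antigen presentation genes were higher in Rbm20_homo more often than lower. Of 25 measured interferon genes, 7 were higher and 1 lower than in WT, and of 15 antigen presentation genes, 5 were higher and 0 lower, beside 9.14% of all genes higher and 9.82% lower. The lists had median log2 ratios of 0.15 for the interferon list and 0.36 for the antigen presentation list. The GTPase gene Iigp1 had 234 CPM in the corrected library, 589.9 in Rbm20_homo, 231 in Rbm20_het and 226 in WT, and was 2.61-fold higher (95% interval 2.35 to 2.90) in Rbm20_homo than in WT. Gbp2 had 26.3 CPM in the corrected library, 78.3 in Rbm20_homo, 33.6 in Rbm20_het and 29.6 in WT. Gbp6 had 29.1 CPM in the corrected library, 67.7 in Rbm20_homo, 19.7 in Rbm20_het and 20.2 in WT. In each of these 3 genes Rbm20_homo was above the other 3 libraries. Gbp and Iigp genes have near-identical copies, so their 3′ counts may be shared or split and are uncertain. Nlrc5, which switches on class I antigen presentation genes, had 79.996 CPM in the corrected library, 125 in Rbm20_homo, 70.6 in Rbm20_het and 69.04 in WT. The peptide transporter gene Tap1 had 33.2 CPM in the corrected library, 61.4 in Rbm20_homo, 33.2 in Rbm20_het and 35.4 in WT. The class II gene H2-Ab1 had 10.48 CPM in the corrected library, 25.1 in Rbm20_homo, 1.68 in Rbm20_het and 11.7 in WT. Its activator Ciita had 8.69 CPM in the corrected library, 16.9 in Rbm20_homo, 2.94 in Rbm20_het and 8.52 in WT. Both were higher in Rbm20_homo from few UMIs, and immune nuclei of Rbm20_homo held 123 CPM of H2-Ab1. The part of immune RNA in them was not tested.

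Genes of vascular tone were higher in Rbm20_homo than in WT for 5 of 18 measured members and lower for 0, beside 9.14% and 9.82% of all genes. Edn1, the vasoconstrictor endothelin 1, had 8.69 CPM in the corrected library, 36.3 in Rbm20_homo, 9.66 in Rbm20_het and 14.8 in WT. Ace, the angiotensin-converting enzyme, had 13.8 CPM in the corrected library, 54.6 in Rbm20_homo, 25.2 in Rbm20_het and 19.7 in WT. S1pr1, the receptor of a blood lipid that holds the vessel barrier, had 139 CPM in the corrected library, 258 in Rbm20_homo, 161 in Rbm20_het and 111 in WT, and was 2.33-fold higher (95% interval 1.998 to 2.72) in Rbm20_homo than in WT. Ramp2, the adrenomedullin receptor partner, had 87.2 CPM in the corrected library, 219 in Rbm20_homo, 135 in Rbm20_het and 114 in WT. Rbm20_homo was highest in all 4. Nos3, the endothelial nitric oxide synthase, had 168 CPM in the corrected library, 203 in Rbm20_homo, 207 in Rbm20_het and 200.4 in WT and was not past 1.5-fold.

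For fatty acid handling, 5 of 21 measured genes were lower in Rbm20_homo than in WT and 2 higher, with a median log2 ratio of -0.33. Of all genes 9.82% were lower and 9.14% higher, so the higher count is that of all genes. Cd36, the main fatty acid carrier, had 1521 CPM in the corrected library, 1560.4 in Rbm20_homo, 1423 in Rbm20_het and 1393 in WT, close across libraries. Fabp4, the binding protein inside the cell, had 912 CPM in the corrected library, 1203 in Rbm20_homo, 1152 in Rbm20_het and 1526 in WT, not past 1.5-fold in Rbm20_homo. Fabp5 had 60.3 CPM in the corrected library, 64.8 in Rbm20_homo, 57.53 in Rbm20_het and 99.98 in WT. Cavin2, a caveola protein, had 382 CPM in the corrected library, 324 in Rbm20_homo, 372 in Rbm20_het and 575 in WT and was 1.78-fold lower (95% interval 1.62 to 1.95). Lpl, lipoprotein lipase, had 299.8 CPM in the corrected library, 608 in Rbm20_homo, 441 in Rbm20_het and 316 in WT and was 1.93-fold higher (95% interval 1.76 to 2.12). Gpihbp1, its anchor, had 166 CPM in the corrected library, 311 in Rbm20_homo, 252 in Rbm20_het and 246 in WT. Slc27a1, a fatty acid transport gene, had 44.98 CPM in the corrected library, 18.9 in Rbm20_homo, 45.4 in Rbm20_het and 65.45 in WT, and WT cardiomyocytes held 442 CPM.

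Of 17 solute carriers and transporters, 5 were lower and 2 higher in Rbm20_homo than in WT, beside 9.82% of all genes lower and 9.14% higher, so the higher count is near that of all genes. Abcg2, an efflux pump, had 237 CPM in the corrected library, 526 in Rbm20_homo, 376 in Rbm20_het and 311 in WT. Slc3a2, an amino acid transporter subunit, had 34.2 CPM in the corrected library, 90.9 in Rbm20_homo, 40.3 in Rbm20_het and 35.4 in WT. Aqp7, a glycerol channel, had 87.4 CPM in the corrected library, 45.45 in Rbm20_homo, 84.4 in Rbm20_het and 78.46 in WT. Of 25 basement membrane genes, 6 were lower and 2 higher, the second again near the share of all genes. Lama4, the laminin chain of endothelial basement membranes, had 483 CPM in the corrected library, 318 in Rbm20_homo, 416 in Rbm20_het and 578 in WT, and was 1.82-fold lower (95% interval 1.65 to 1.998). Hspg2, which encodes perlecan, had 549 CPM in the corrected library, 395 in Rbm20_homo, 559 in Rbm20_het and 629.9 in WT. Nid2 had 32.46 CPM in the corrected library, 24.2 in Rbm20_homo, 38.2 in Rbm20_het and 53.8 in WT. Xdh, xanthine oxidoreductase, had 809.9 CPM in the corrected library, 1268 in Rbm20_homo, 1345 in Rbm20_het and 629 in WT, and was 2.01-fold higher (95% interval 1.89 to 2.15) in Rbm20_homo than in WT, with Rbm20_het as high.

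Mesenchymal genes were higher in Rbm20_homo than in WT for 6 of 12 measured members and lower for 0, with a median log2 ratio of 0.49, beside 9.14% of all genes higher and 9.82% lower. Col3a1, a fibrillar collagen, had 44.7 CPM in the corrected library, 135 in Rbm20_homo, 24.4 in Rbm20_het and 34.97 in WT. Postn, a matrix protein of activated fibroblasts, had 16.9 CPM in the corrected library, 77.8 in Rbm20_homo, 13.02 in Rbm20_het and 20.6 in WT. Ccn2, a matrix signal gene, had 5.37 CPM in the corrected library, 73.98 in Rbm20_homo, 15.54 in Rbm20_het and 12.1 in WT. Rbm20_homo was highest in all 3, and Col3a1 and Postn are also on the fibroblast marker list. The summed fibroblast markers, 1823 CPM in capillary nuclei of Rbm20_homo and 1088 in WT, moved with this list, and their part in it was not tested. Their median log2 ratio of 1.62 was above that of every functional list. Of 16 hypoxia genes 7 were higher and 1 lower, with a median of 0.41. The largest ratios on that list were those of Hif3a and Ddit4, given above, and Hif3a is also on the glucocorticoid list. Of 13 immediate early genes 3 were higher and 0 lower, and of 24 angiocrine genes 6 were higher and 2 lower. The higher angiocrine genes include Ccn2, also on the mesenchymal list, and Edn1, also on the vascular tone list, so these counts are not separate. Of 16 inflammatory genes 4 were higher and 4 lower, and of 16 sprouting genes 2 were higher and 4 lower. The 2 higher sprouting and 2 lower angiocrine genes are near the shares of all genes.

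Among the 10 lowest genes by the naming rule were several with endothelial levels. Slc26a10, an anion exchanger gene, had 213 CPM in the corrected library, 92.8 in Rbm20_homo, 172 in Rbm20_het and 281 in WT, and was 3.02-fold lower (95% interval 2.57 to 3.57) in Rbm20_homo than in WT. Nr5a2, a nuclear receptor gene, had 30.2 CPM in the corrected library, 9.19 in Rbm20_homo, 19.7 in Rbm20_het and 39.004 in WT. Myh7b and Lgals4, also among the 10, had higher levels in cardiomyocytes of WT than in capillary nuclei of WT. Myh7b, a myosin gene, had 21.2 CPM in the corrected library, 1.93 in Rbm20_homo, 1.68 in Rbm20_het and 43.04 in WT, with 353 CPM in cardiomyocytes of WT. Lgals4, a galectin gene, had 39.1 CPM in the corrected library, 22.7 in Rbm20_homo, 38.2 in Rbm20_het and 130.01 in WT, with 528 CPM in cardiomyocytes of WT, and the part of cardiomyocyte RNA in both was not tested.

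Junction genes were rarely past the fold: of 19 measured, 1 (Jam3, a junctional adhesion molecule) was lower and 0 were higher in Rbm20_homo than in WT. Jam3 had 165 CPM in the corrected library, 85.1 in Rbm20_homo, 144 in Rbm20_het and 165 in WT. Of 16 Notch genes 2 were lower and 0 higher, and of 25 genes of the BMP and TGF-beta pathways 3 were higher and 1 lower. These counts lie near or under those of all genes (9.14% higher, 9.82% lower).

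**Figure D3:**
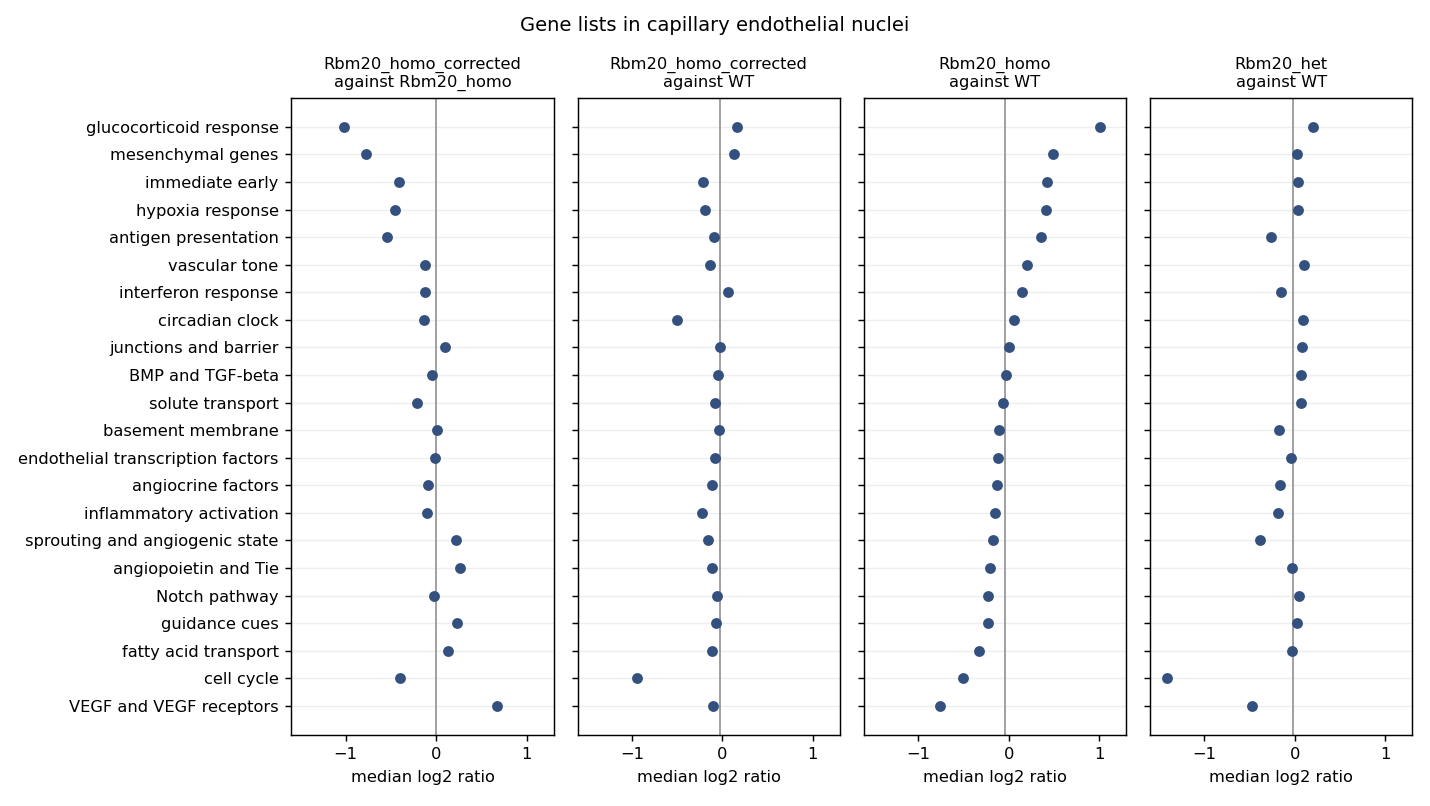
Median log2 ratio of each of the 22 functional gene lists in capillary nuclei (x axis) in the 4 comparisons, with the median of all measured genes as a line. In Rbm20_homo against WT the glucocorticoid list lies furthest right at 1.01 and the VEGF list furthest left at -0.76.

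In Rbm20_het against WT, 9280 genes were measured, with 354 (3.81%) higher and 559 (6.02%) lower, against the 842 and 905 of Rbm20_homo, a comparison that shares the WT library. With TMM factors 432 were higher and 453 lower in Rbm20_het, so the excess of lower genes depends on the scaling. Of 18 glucocorticoid genes 6 were higher and 1 lower, with a median log2 ratio of 0.20. Zbtb16 was 5.37-fold higher (95% interval 4.73 to 6.11) in Rbm20_het than in WT and Fkbp5 was 2.62-fold higher (95% interval 2.15 to 3.20). Xdh, Spock2, Ccnd3 and Dnah3 were also among the 8 highest by the naming rule: Xdh was 2.14-fold higher, Ccnd3 2.09-fold higher and Dnah3 4.28-fold higher. For the VEGF list 2 of 6 were lower and 0 higher, with a median of -0.47. Of 25 interferon genes 0 were higher and 2 lower, and of 12 antigen presentation genes 0 were higher and 2 lower. Whether the 2 comparisons differ was not tested.

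In the corrected library against Rbm20_homo, 10101 genes were measured, with 861 (8.52%) higher and 934 (9.25%) lower. With TMM factors 965 were higher and 832 lower. Of 21 glucocorticoid genes 11 were lower and 0 higher, with a median log2 ratio of -1.01, and of 6 VEGF genes 4 were higher and 0 lower, with a median of 0.67. Zbtb16 was 2.67-fold lower (95% interval 2.503 to 2.84) in the corrected library than in Rbm20_homo and Fkbp5 5.39-fold lower (95% interval 4.81 to 6.05). Kdr was 1.68-fold higher (95% interval 1.51 to 1.88), Nrp1 1.62-fold higher (95% interval 1.53 to 1.70) and Robo2 4.75-fold higher (95% interval 3.66 to 6.25). Of 26 interferon genes 6 were lower and 1 higher, and of 16 antigen presentation genes 8 were lower and 0 higher. Of 26 guidance genes 8 were higher and 1 lower, and the 8 include Nrp1 and Nrp2, which are also on the VEGF list. The Rbm20_homo library also stands in the comparison against WT above, so a value high or low in that library alone gives opposite directions in both.

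In the corrected library against WT, which does not use Rbm20_homo, 10178 genes were measured, with 506 (4.97%) higher and 648 (6.37%) lower. With TMM factors the balance turned, to 694 higher and 453 lower, and with median-of-ratios factors to 626 higher and 534 lower. The glucocorticoid list had a median of 0.16, with 4 of 20 higher and 2 lower, and the VEGF list -0.10, with 1 of 6 lower and 0 higher. Zbtb16 was 3.32-fold higher (95% interval 2.93 to 3.78) in the corrected library than in WT and Fkbp5 1.66-fold higher (95% interval 1.36 to 2.02). Kdr had a ratio of 0.999 (95% interval 0.916 to 1.09), and Nrp1 was 1.06-fold lower (95% interval 1.02 to 1.11). Of 15 clock genes 2 were higher and 7 lower, with a median of -0.50. Cell cycle genes were lower for 7 of 8 and higher for 0.

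Among the clock genes the corrected library was highest for Arntl and Npas2 and lowest for Per1, Per2, Cry1 and Tef. Arntl, the activator of the clock, had 66.96 CPM in the corrected library, 19.3 in Rbm20_homo, 3.78 in Rbm20_het and 4.48 in WT, and was 14.9-fold higher (95% interval 7.99 to 31.51) in the corrected library than in WT. Its partner Npas2 had 28.1 CPM in the corrected library, 13.1 in Rbm20_homo, 8.82 in Rbm20_het and 7.62 in WT. Per1, a repressor of the clock, had 37.1 CPM in the corrected library, 83.2 in Rbm20_homo, 77.7 in Rbm20_het and 79.4 in WT. Per2 had 24.8 CPM in the corrected library, 133 in Rbm20_homo, 119 in Rbm20_het and 72.2 in WT. Their partner Cry1 had 10.7 CPM in the corrected library, 51.7 in Rbm20_homo, 44.51 in Rbm20_het and 26.9 in WT. These 3 repressors were lowest in the library where Arntl was highest. Nr1d1, another repressor of the clock, went otherwise: it was lower in Rbm20_homo than in the corrected library and WT. Tef, an output factor, had 94.1 CPM in the corrected library, 122 in Rbm20_homo, 218 in Rbm20_het and 182 in WT. Dbp, another output gene, had 36.8 CPM in the corrected library, 19.3 in Rbm20_homo, 92.8 in Rbm20_het and 121 in WT and was lowest in Rbm20_homo. The hour at which hearts were collected is not given in the sources used here, and its part was not tested.

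The promoters of Per1, Cry1 and Tef are shown because each holds an E-box, CACGTG, the letters that clock activators bind, and each was lowest in the corrected library. The windows are RefSeq's GRCm38.p6 annotation, for Per1 chr11:69098699-69098998, plus strand, for Cry1 chr10:85185005-85185304, minus strand and for Tef chr15:81802423-81802722, plus strand. The capitals mark the E-box, which reads the same on both strands.
Per1: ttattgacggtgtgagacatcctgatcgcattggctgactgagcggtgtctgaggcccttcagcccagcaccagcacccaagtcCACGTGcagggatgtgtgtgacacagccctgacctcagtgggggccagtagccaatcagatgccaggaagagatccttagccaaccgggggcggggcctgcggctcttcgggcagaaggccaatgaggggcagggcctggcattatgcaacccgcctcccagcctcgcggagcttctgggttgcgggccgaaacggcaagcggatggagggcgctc
Cry1: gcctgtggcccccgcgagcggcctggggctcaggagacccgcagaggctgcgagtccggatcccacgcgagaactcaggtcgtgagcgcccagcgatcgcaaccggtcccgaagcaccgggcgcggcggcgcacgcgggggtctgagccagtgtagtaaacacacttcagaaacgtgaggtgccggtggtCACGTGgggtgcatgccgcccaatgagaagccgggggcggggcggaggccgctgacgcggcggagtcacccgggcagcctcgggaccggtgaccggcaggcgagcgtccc
Tef: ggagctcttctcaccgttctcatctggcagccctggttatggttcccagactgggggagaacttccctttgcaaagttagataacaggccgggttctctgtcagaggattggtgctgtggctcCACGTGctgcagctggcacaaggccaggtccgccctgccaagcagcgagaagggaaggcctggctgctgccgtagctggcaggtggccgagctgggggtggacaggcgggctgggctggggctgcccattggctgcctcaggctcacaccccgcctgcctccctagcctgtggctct
Of 32851 promoters of this length 2349 (7.15%) held an E-box. In the clock list 17 of 19 genes were matched and 5 held one (29.4%), namely Bhlhe41, Ciart, Cry1, Per1 and Tef. A match is a description of letters and not a binding site.

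Genes measured in other cell classes of the same libraries give the setting of these values. Zbtb16 in Rbm20_homo over WT had a ratio of 13.96 in endocardial nuclei, 9.75 in mural nuclei, 3.05 in fibroblasts and 3.32 in cardiomyocytes, past 1.5-fold in each. Fkbp5 had a ratio of 14.1 in endocardial nuclei, 3.04 in fibroblasts and 15.9 in cardiomyocytes. Nrp1 had 1.41 (95% interval 1.26 to 1.57) in endocardial nuclei and 0.992 in mural nuclei, where it was not lower. Kdr had 0.648 (95% interval 0.406 to 1.03) in endocardial and 1.11 (95% interval 0.824 to 1.51) in lymphatic nuclei. Slc28a2 had 0.459 (95% interval 0.238 to 0.860) in endocardial nuclei, and Robo2 had 0.906 (95% interval 0.446 to 1.85) there. Iigp1 had 3.70 in endocardial nuclei, 3.32 in fibroblasts and 0.411 in cardiomyocytes, where it was lower. Camk1d, a calmodulin-dependent kinase, had 1075 CPM in the corrected library, 584 in Rbm20_homo, 1156 in Rbm20_het and 1614 in WT in capillary sums, a ratio of 0.362 for Rbm20_homo over WT, and ratios of 0.298 to 0.636 over the other 6 classes. With 1 library per genotype, a difference between classes was not tested.

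**Figure D4:**
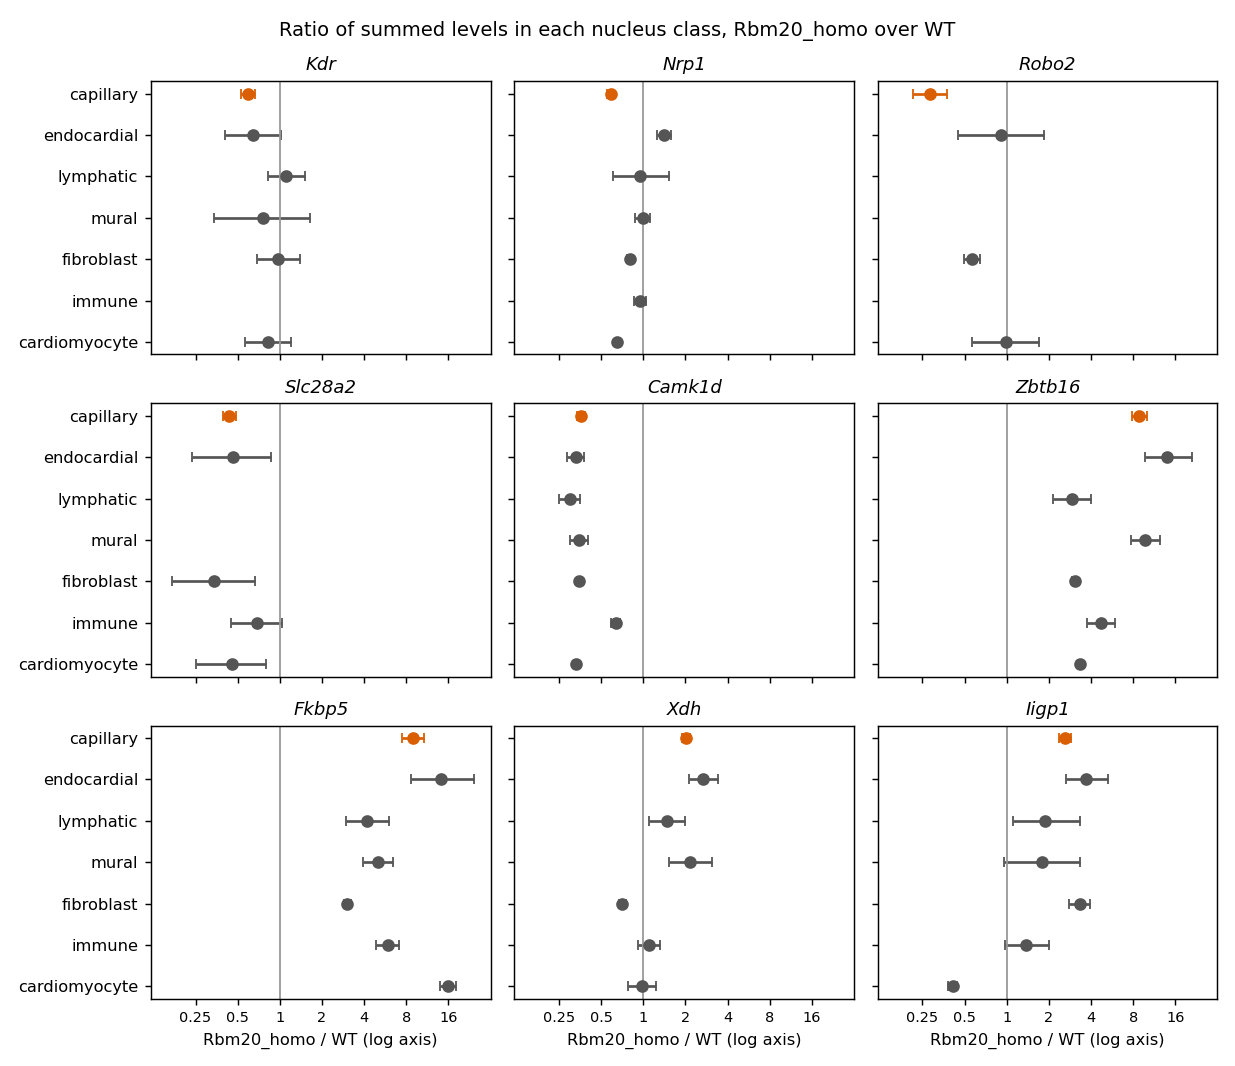
Ratio of CPM in Rbm20_homo to WT (log axis) for named genes in each cell class, with 95% intervals for counting error only; points with under 20 UMIs in the 2 libraries together are left out. Zbtb16 lies to the right of 1 in each class plotted, and Nrp1 lies left of 1 in capillary nuclei but right of it in endocardial nuclei.

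Nppa, the atrial natriuretic peptide gene, had 36.8 CPM in the corrected library, 872 in Rbm20_homo, 28.98 in Rbm20_het and 5.38 in WT in capillary sums, and was 162-fold higher in Rbm20_homo than in WT. In cardiomyocytes it had 905 CPM in Rbm20_homo and 11.04 in WT. The other classes of Rbm20_homo held 512 to 765 CPM. The part of cardiomyocyte RNA in the capillary value was not tested. Cilp, a matrix gene of fibroblasts, had 57 UMIs in capillary nuclei of Rbm20_homo and 0 in WT. Mgp, a matrix protein gene, had 82.04 CPM in the corrected library, 458 in Rbm20_homo, 119 in Rbm20_het and 81.6 in WT, and was 5.61-fold higher (95% interval 4.78 to 6.61) in Rbm20_homo than in WT. Thinned to 1000 UMIs, a Mgp UMI was held by 7.40% of capillary nuclei in the corrected library, 31.1% in Rbm20_homo, 10.3% in Rbm20_het and 6.77% in WT. Cardiomyocytes at that depth held one in 2.81% of nuclei in the corrected library, 9.62% in Rbm20_homo, 3.65% in Rbm20_het and 2.47% in WT, so Rbm20_homo was highest in both classes.

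Capillary nuclei also differed in how many carried arterial or venous genes. Among thinned members, at least 2 UMIs of the 14 venous-associated genes were found in 21.9% of nuclei in the corrected library, 29.3% in Rbm20_homo, 25.3% in Rbm20_het and 26.2% in WT, with 1.96% to 3.09% in cardiomyocytes. Fibroblasts held them in 9.37% of nuclei in the corrected library, 6.63% in Rbm20_homo, 8.84% in Rbm20_het and 9.92% in WT. Summed, these genes had 897 to 1272 CPM in capillary nuclei and 2482 to 3246 CPM in endocardial nuclei across the libraries. The list therefore does not mark venous endothelium alone. Unthinned, the shares were 36.1% in the corrected library, 45.5% in Rbm20_homo, 41.8% in Rbm20_het and 41.7% in WT. The arterial-associated list, with 12 genes outside the rule, reached 24.1% of nuclei in the corrected library, 38.4% in Rbm20_homo, 31.2% in Rbm20_het and 29.4% in WT, and unthinned 37.3% in the corrected library, 57.4% in Rbm20_homo, 48.3% in Rbm20_het and 46.4% in WT. Fibroblasts held 12.3% in the corrected library, 28.5% in Rbm20_homo, 14.1% in Rbm20_het and 14.5% in WT, so Rbm20_homo was highest there too. In capillary nuclei Rbm20_homo was highest and the corrected library lowest for both lists, and the selection had already limited 3 arterial genes. By gene, 4 of 11 measured arterial-list genes were higher in Rbm20_homo than in WT and 0 lower. Their median log2 ratio was 0.05, so the arterial shares do not describe the list's typical gene. For the venous list 2 of 10 were higher and 2 lower, with a median of 0.35. Of all genes 9.14% were higher and 9.82% lower. Ackr1, a defining gene of veins, was at 0 in Rbm20_homo, Rbm20_het and WT. Vwf, the von Willebrand factor gene, was found in 5.82% of nuclei in the corrected library, 16.3% in Rbm20_homo, 10.4% in Rbm20_het and 10.6% in WT, with 0.456% to 0.704% in cardiomyocytes. Its sum was 82.04 CPM in the corrected library, 300.3 in Rbm20_homo, 207 in Rbm20_het and 164 in WT.

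Nuclei with at least 2 venous-list UMIs were set against those with 0, in thinned counts, and the genes outside the list named here were ranked by the ratio that held in all 4 libraries. Their direction is therefore fixed by the ranking and is a description. Eln, the elastin gene, was 4.52 times as high in the corrected library, 3.41 in Rbm20_homo, 3.58 in Rbm20_het and 5.68 in WT. Kirrel3, an adhesion molecule, was 8.99 times as high in the corrected library, 3.29 in Rbm20_homo, 3.45 in Rbm20_het and 4.93 in WT. Efnb2, an arterial ephrin, had a ratio of 0.366 in the corrected library, 0.338 in Rbm20_homo, 0.333 in Rbm20_het and 0.324 in WT. Myo10, a myosin gene and one of the 15 most capillary genes, had 0.418 in the corrected library, 0.279 in Rbm20_homo, 0.327 in Rbm20_het and 0.358 in WT. Eln was also higher in nuclei with at least 2 arterial-list UMIs than in those with 0, by 2.78 times in the corrected library, 1.98 in Rbm20_homo, 3.18 in Rbm20_het and 2.36 in WT, so it does not mark the venous list alone. The nuclei with at least 2 UMIs numbered 445 in the corrected library, 307 in Rbm20_homo, 299 in Rbm20_het and 290 in WT.

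**Figure D5:**
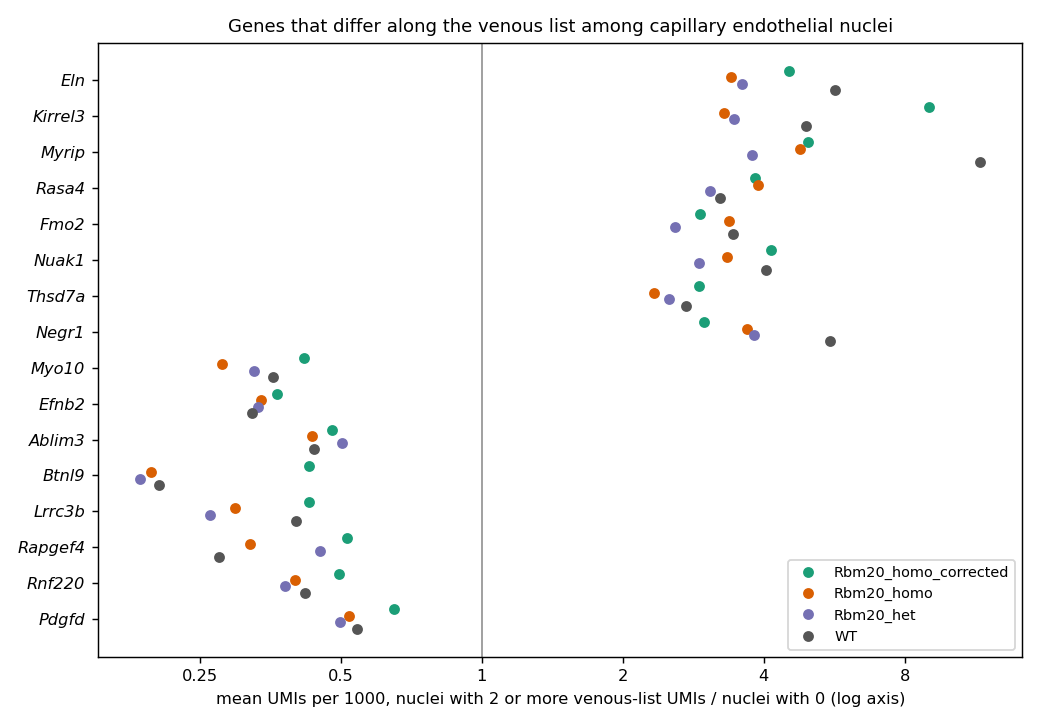
Level in capillary nuclei with at least 2 venous-list UMIs over that in nuclei with 0 (log axis, thinned counts) for genes outside the list, with 1 point for each library. Eln and Kirrel3 lie to the right of 1, and Efnb2 and Myo10 to the left, in all 4 libraries.

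Cell cycle genes were scarce. Among thinned members 0.888% in the corrected library, 1.81% in Rbm20_homo, 1.27% in Rbm20_het and 3.25% in WT held at least 2 UMIs of the list. These were 18 nuclei in the corrected library, 19 in Rbm20_homo, 15 in Rbm20_het and 36 in WT. Top2a, a topoisomerase of dividing cells, had 2.81 CPM in the corrected library, 14.99 in Rbm20_homo, 5.04 in Rbm20_het and 35.9 in WT. Mki67 had 2.30 CPM in the corrected library, 9.67 in Rbm20_homo, 6.30 in Rbm20_het and 21.97 in WT. WT was highest in each. Of 9 measured cell cycle genes 4 were lower in Rbm20_homo than in WT and 0 higher, and of 6 in Rbm20_het 4 were lower and 0 higher. Of all genes 9.82% were lower in Rbm20_homo and 6.02% in Rbm20_het. The list's median log2 ratio in Rbm20_het against WT was -1.42, but -0.28 when thinned to 1000 UMIs.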

How the data were processed

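The deposited files are UMI counts per gene and barcode, raw whole numbers made by the authors and not normalized. Cell Ranger 4.0.0 stands in the matrix headers, whereas version 6.1.1 of it is given, beside Seurat 4 and the builds mm10 and GRCm38, per the submitters' processing notes. Whether introns were counted, and how barcodes were chosen, is not given in the sources used here. Of 45992 barcodes 45483 passed the limits of 300 genes and 5% mitochondrial UMIs. The capillary selection was then applied to each nucleus. Arterial, endocardial, lymphatic, mural, fibroblast and immune nuclei were set by minimum UMIs of their own markers. Arterial and endocardial nuclei also had to meet the endothelial minimum. Cardiomyocytes were set by a share of at least 2.5% of UMIs from the cardiomyocyte genes of the selection. Mural, fibroblast, immune and cardiomyocyte nuclei were also limited to 1 UMI of the endothelial genes.

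Counts were summed per library and divided by the sum outside mitochondrial genes. With 1 library per genotype there is no test between genotypes. Intervals are exact Poisson for sums, Clopper-Pearson for shares and conditional binomial for ratios, at 95%, and cover counting error only. A gene was called at 1.5-fold with at least 50 UMIs in both libraries together. Thinned shares use nuclei with at least 1000 UMIs, each thinned to 1000 with seed 1. No doublet caller was run: the selection limits markers of other classes, and alternatives left out nuclei with 2 mural UMIs and the 5% deepest. Other alternatives were other endothelial and cardiomyocyte limits, another denominator, TMM factors from edgeR 4.0.16, median-of-ratios factors, sums without Malat1, thinned counts and other gene filters. Between 26 and 55 barcodes were shared by any 2 libraries. Genes were named by rank of the ratio bound nearest to 1 (10 in each direction for Rbm20_homo against WT and 8 for the other comparisons), by up to 5 members of each of 22 functional lists with the largest ratio and up to 5 with the highest level, and as the 15 most capillary genes; some others, such as Nr3c1, were added because of their role, and sex-linked genes were left out. The members, lists and naming rule were chosen with earlier results of these data known. The scripts, in Python 3.11.15 and R 4.3.3, were tested on simulated data. Gene positions are from the GENCODE vM21 annotation and promoters from RefSeq, both on GRCm38.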

Additional observations from a re-analysis of the deposited data

Results flagged for a closer look

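In the corrected library, capillary nuclei held transcripts of both features named for the base editor, which no comparison here uses. They were set apart because they were above the 0 seen in the 3 libraries without correction. ABE_C was at 6.90 CPM (27 UMIs, 95% interval 4.55 to 10.04) and ABE_N at 12.0 CPM (47 UMIs, 8.83 to 15.97) in capillary nuclei. Cardiomyocytes of that library held 152 CPM of ABE_C and 211 CPM of ABE_N, and fibroblasts 9.09 CPM and 9.90 CPM. The capillary values are of the size of those in fibroblasts, and the part of cardiomyocyte RNA in them was not tested.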

How the results depend on the processing

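No paired analysis was possible because each genotype had 1 library. With 1 library each, only counting error is known, and low genes are limited by depth. Each gene ratio was computed again under each alternative, so the cases counted here are ratios by setting. In 2055 cases the ratio stayed within its interval and in 45 it moved. Thinning to 1000 UMIs gave 33 of these moves, with 197 cases staying within the interval. In 1 case the direction turned: Acta2 in Rbm20_homo against WT, -1.98 on the log2 scale when thinned to 1000 UMIs. List medians stayed between the medians of their members' lower and upper interval bounds in 960 cases and moved outside them in 8. A median counted as staying could still change. Rbm20_homo had the lowest capillary share under each of the alternative settings. The share became, with a minimum of 3 endothelial UMIs, 15.8% in the corrected library and 13.7% in WT. With a minimum of 8 it was 13.01% in the corrected library, 8.83% in Rbm20_homo, 12.2% in Rbm20_het and 11.1% in WT. With cardiomyocyte genes under 1% it was 12.99% in the corrected library and 11.9% in WT. Without nuclei carrying 2 mural UMIs it was 13.1% in the corrected library, 9.23% in Rbm20_homo, 12.2% in Rbm20_het and 11.8% in WT. Without the 5% deepest nuclei it was 14.1% in the corrected library. Thinned to 1000 UMIs it was 10.7% in Rbm20_homo, 14.1% in Rbm20_het and 11.9% in WT. Of nuclei under the cardiomyocyte limit it was 20.2% in the corrected library, 14.1% in Rbm20_homo, 19.0% in Rbm20_het and 20.9% in WT. Gene counts moved by over 1.5 times with the filters only, by construction of the genes tested, while TMM factors turned the balance of higher and lower genes in the corrected library against WT (694 higher, 453 lower), in it against Rbm20_homo (965 and 832) and in Rbm20_homo against WT (935 and 802). With a minimum of 200 UMIs, 273 genes were higher and 257 lower in Rbm20_homo against WT, 93 and 102 in Rbm20_het against WT, 332 and 321 in the corrected library against Rbm20_homo, and 148 and 156 in it against WT. With no filter these were 4268 and 4434, then 3288 and 4225, then 4423 and 4378, then 3968 and 4034. Without genes higher in another class they were 227 and 233, then 79 and 132, then 159 and 284, then 59 and 164. In Rbm20_homo against WT the mesenchymal median log2 ratio moved from 0.49 to 1.33 without genes under 0.2 of another class. The clock list there moved from 0.058 to -0.26 with a minimum of 200 UMIs. In Rbm20_het against WT the cell cycle median moved from -1.42 to -0.28 when thinned and to -0.24 with a minimum of 200 UMIs. In the corrected library against Rbm20_homo the mesenchymal median moved from -0.78 to -0.074 with a minimum of 200 UMIs. In the corrected library against WT, the VEGF median moved from -0.10 to -0.019 with TMM factors. The angiopoietin median there moved from -0.11 to 0.16 without nuclei carrying mural UMIs, and the clock median from -0.50 to -1.08 when thinned. The cause was not tested. Scaling factors moved the median of all genes by under 0.1 on the log2 scale.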
